A study of Homo sapiens with 4 samples.

Results

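Within the SIRT1 knockout library at day 6 of differentiation, cells differed in how much of their RNA came from chromosome 20. The cells compared here were 2 classes of that single library, cut from a per-cell marker share. The share was the sum of UMIs (unique molecular identifiers, each standing for 1 captured RNA molecule) of 59 broadly expressed chromosome 20 genes, divided by the UMIs outside mitochondrial (MT-) and ribosomal protein (RPL and RPS) genes. The classes were thus selected on measured RNA, by rank of this share. The lowest 50% of cells formed the low class with 2209 cells, the highest 25% the high class with 1104 cells, and the 1106 cells between them a middle class. The low and high classes together held 3313 of the library's 4419 cells and of the 22599 cells of all 4 libraries. The word dosage refers to RNA throughout, because no DNA was measured.

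The cells were H9 human embryonic stem cells, an established line, taken through a protocol for dopaminergic neurons. The 4 libraries were SIRT1 knockout at day 6 and day 0 and wild type (WT) at day 6 and day 0, with 1 library each, and the knockout cells carried a deletion of SIRT1, the gene of an NAD-dependent deacetylase. The kind of deletion, and whether the knockout line was a single clone, are not given in the sources used here. Low and high cells shared 1 library and its label, SIRT1 knockout at day 6. Whether they came from 1 culture is not given, and no DNA was measured that would show a shared genotype. The comparison was within 1 library and its cells were not replicates.

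Chromosome 20 carries several genes that act early in human development, among them the floor plate transcription factor FOXA2 and the apoptosis inhibitor BCL2L1. Human pluripotent cells in long culture recurrently gain material of its long arm, and losses or gains of a whole chromosome also arise in culture. A change in the copy number of a chromosome generally moves the RNA of most of its genes in the same direction.

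The low class held 33129090 UMIs, the middle class 16566090 and the high class 15641530. Median UMIs per cell were 13520, 13108 and 12426 in the same order, mitochondrial UMIs 1.83%, 1.99% and 2.12% of the total, and ribosomal protein UMIs 27.8%, 27.9% and 28.6%. In all, 5 to 18 cell barcodes were shared by any pair of libraries. The targeted gene SIRT1 (chromosome 10, 67884669 to 67918390, GRCh38) had 10.4 CPM (UMIs of the gene per 1000000 UMIs of the class) in the low class, 9.24 in the middle and 9.85 in the high class, against 30.2 CPM in WT at day 6. The knockout's low SIRT1 level was therefore shared by all 3 classes, at a low to high ratio of 1.05 (95% counting interval 0.867 to 1.28). This is a 3′ tag assay, so SIRT1 RNA that lacks a deleted part could still be counted.

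The share that chose the classes had a wide spread in the knockout. Marker shares ran over 0.589% to 1.11% in the low class (median 0.976%), had a median of 1.20% in the middle class, and ran over 1.34% to 2.20% in the high class (median 1.51%). WT cells at day 6 had a median of 1.53%. All 2209 low cells, 372 of the middle cells and 0 of the high cells lay below the 5th percentile of WT at day 6, which was 1.16%. These values follow from the ranking and are a description. Nothing separated the classes at their limits: the cells next to the lower limit had shares of 1.1114% on both sides, 327 cells lay within 2% of it, and 184 lay within 2% of the upper limit, where the neighbouring shares were 1.343% and 1.344%. The standard deviation of the share was 2.16 times what counting error alone gives in the knockout at day 6, 1.83 times in the knockout at day 0, 1.39 times in WT at day 6 and 1.30 times in WT at day 0.

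**Figure D1:**
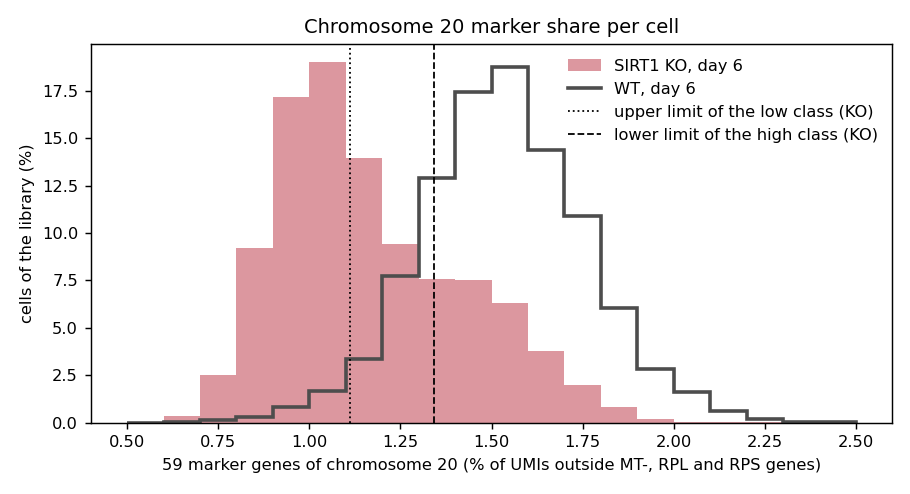
Share of each cell's UMIs that came from the 59 chromosome 20 markers (horizontal axis, % of UMIs outside MT-, RPL and RPS genes) against the percentage of the library's cells (vertical axis), for SIRT1 knockout at day 6 (filled) and WT at day 6 (line). The knockout has its bulk left of WT with a shoulder reaching over the WT median of 1.53%, and the vertical lines mark the class limits near 1.11% and 1.34%.

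The remaining genes of chromosome 20, which had no part in choosing the cells, were lower in the low class along the whole chromosome. Of 180 such genes at 10 CPM or more over the library, 171 had a low over high ratio below the median of all genes off the chromosome. Their median log2 ratio was -0.50, against 0.03 for 8271 genes off chromosome 20, a ratio of 0.690 relative to those genes. The quartiles relative to those genes were -0.63 and -0.37. By the rule used for all counts below, at least 1.5-fold with a 95% counting interval excluding 1, 54 of the 180 (30.0%) were lower and 0 (0.0%) higher.

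The lower level was shared by both arms. The median log2 ratio was -0.53 over 55 short arm genes and -0.50 over 125 long arm genes. Cut into 5 stretches, the chromosome had medians of -0.50 and -0.56 on the outer and inner short arm and of -0.45, -0.52 and -0.51 on the inner, middle and outer long arm, so no stretch stood at the level of the other chromosomes. Medians of the 22 other chromosomes (the autosomes and X) ran over -0.01 to 0.07. Per cell, the markers of the short and long arms were correlated at r = 0.521 over 4419 knockout cells at day 6, and at 0.175 over 5372 WT cells at day 6. Both shares of a cell have the same denominator, and these values are descriptions.

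**Figure D2:**
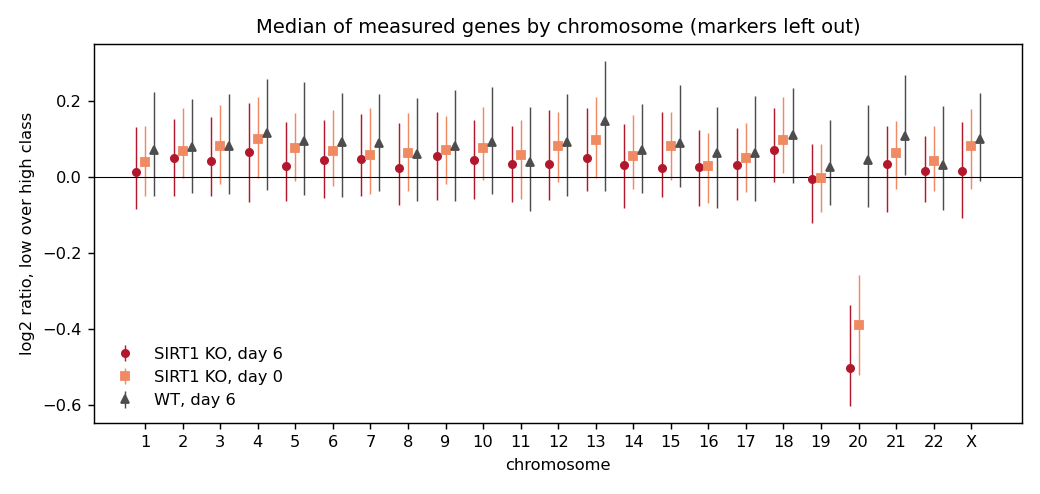
Median log2 ratio, low over high class, of the measured genes of each chromosome (points, markers left out) with the quartiles over genes (bars), for SIRT1 knockout at day 6, SIRT1 knockout at day 0 and WT at day 6, each library cut by its own marker shares. Chromosome 20 stands at -0.50 and -0.39 in the knockout libraries and at 0.05 in WT, while every other chromosome lies between -0.01 and 0.15.

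Cutting the other libraries by the same rule gave a like offset in the knockout at day 0 and none of that size in WT at day 6. In the knockout at day 0, 199 chromosome 20 genes outside the markers had a median log2 ratio of -0.39, and 27 (13.6%) were lower. In WT at day 6 the median over 187 genes was 0.05, with 1 (0.535%) lower and 5 (2.67%) higher, although the marker shares there were ranked in the same way. Whether these offsets differ was not tested, since each rests on 1 library.

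Set against WT at day 6, the high class stood near the chromosome 20 level of WT and the low class stood below it. Relative to genes off the chromosome, the median log2 ratio of 170 genes to WT was -0.53 in the low class, -0.29 in the middle class and 0.03 in the high class. The genes off the chromosome had medians of 0.23, 0.22 and 0.19 in these ratios, so each chromosome 20 value is given after subtracting that shift. As a share of UMIs, the genes outside the markers made up 1.29% in the low, 1.47% in the middle and 1.78% in the high class, against 1.72% in WT.

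The share of these genes was flat over the lower deciles and higher from decile 7. Over deciles of marker share in the knockout, it was 1.31%, 1.29%, 1.29%, 1.27%, 1.28% and 1.32% in deciles 1 to 6, then 1.495%, 1.73%, 1.79% and 1.80% in deciles 7 to 10. Over the same deciles in WT it ran between 1.63% and 1.75%. Several of the genes of other chromosomes followed over these deciles, BMP4 and NTS among them, changed level mostly where this share did. BMP4, a secreted ligand of the BMP family, had 9.43 CPM in decile 1, 11.02 in decile 5, 18.2 in decile 6, 59.6 in decile 8 and 55.8 in decile 10. NTS, the precursor of the neuropeptide neurotensin, had 50.3 CPM in decile 1, 51.5 in decile 5, 48.9 in decile 6, 22.1 in decile 8 and 18.1 in decile 10. Between deciles 1 and 5 both genes were nearly flat, and both had most of their change between deciles 6 and 8. TSPO, SHISA2 and NDUFA4L2 also had most of their change between deciles 6 and 8. In deciles 5, 6 and 8, TSPO had 49.7, 42.3 and 20.2 CPM and SHISA2 23.7, 28.7 and 71.1 CPM. NDUFA4L2 had 12.4, 15.1 and 48.1 CPM there. MAPK10, FABP7 and FN1 changed outside these deciles as well. MAPK10 had 141 CPM in decile 1, 118 in decile 5, 102 in decile 6, 61.2 in decile 8 and 34.5 in decile 10. FABP7 had 185 CPM in decile 1, 125 in decile 5, 139 in decile 6, 64.6 in decile 8 and 54.8 in decile 10. The larger part of its change was thus between deciles 6 and 8, with a decline over the lower deciles too. FN1, fibronectin, was highest in decile 8, with 167 CPM, against 49.0 in decile 1, 58.0 in decile 6 and 85.5 in decile 10.

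**Figure D3:**
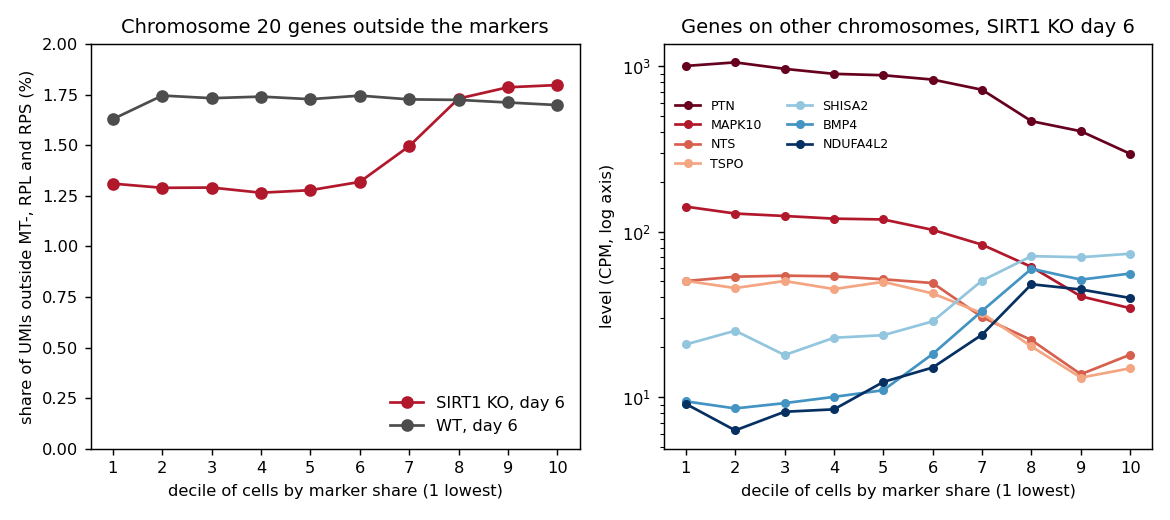
Left: UMIs of chromosome 20 genes outside the markers as a percentage of UMIs outside MT-, RPL and RPS genes, by decile of marker share, for SIRT1 knockout at day 6 and WT at day 6; the knockout lies near 1.3% in deciles 1 to 6 and near 1.8% in deciles 9 and 10. Right: levels in CPM (log axis) of 7 genes on other chromosomes in the knockout deciles; PTN, MAPK10, NTS and TSPO lie lower, and SHISA2, BMP4 and NDUFA4L2 higher, in deciles 8 to 10 than in deciles 1 to 5, MAPK10 and PTN with a decline over the lower deciles too.

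Among single chromosome 20 genes, FOXA2, the master factor of the floor plate, was farther below than the chromosome as a whole. FOXA2 (22581005 to 22585455) had 69.2 CPM in the low, 108 in the middle and 161 in the high class, against 91.4 CPM in WT at day 6, and was 2.33-fold lower in the low than in the high class (2.20 to 2.46). The WT level lay between the low and middle classes. LINC00261 (22547671 to 22578642), the long non-coding RNA next to FOXA2, had 25.8, 52.7 and 84.1 CPM and was 3.25-fold lower (2.98 to 3.55). WFDC2, a secreted epithelial protein, had 59.9, 87.0 and 143 CPM and was 2.39-fold lower (2.25 to 2.54). Besides these 3 genes, CD40, a receptor of the TNF family, and SULF2, a sulfatase of heparan sulfate, also passed a log2 ratio of -1, with -1.07 and -1.71, and were picked out after their values were seen. ADA, the adenosine deaminase, was 1.98-fold lower and CPNE1, a calcium-dependent membrane-binding protein, 1.97-fold.

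Other chromosome 20 genes named here lay on both sides of the chromosome's median of -0.50. BCL2L1 had 13.0, 17.1 and 22.3 CPM in the low, middle and high class, 1.72-fold lower in the low class (1.49 to 1.99), and 44.7 CPM in WT. PCNA, the sliding clamp of DNA replication, had 46.5, 61.1 and 79.7 CPM, 1.71-fold lower (1.59 to 1.84). AHCY, which breaks down S-adenosylhomocysteine, had 200, 235 and 301 CPM and a log2 ratio of -0.59, and CST3, a protease inhibitor, was 1.64-fold lower. DNMT3B, a de novo DNA methyltransferase, and SALL4, a pluripotency factor, had log2 ratios of -0.52 and -0.37 and did not reach 1.5-fold, as did SOX12 with -0.40 and GNAS, a G protein subunit, with -0.33.

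A few chromosome 20 genes did not lie below. Of the 180, 10 had a log2 ratio above 0, and 4 of these are genes of mitosis. AURKA, a spindle kinase, stood at 0.28, TPX2, its activator, at 0.17, FAM83D, a spindle protein, at 0.38 and UBE2C, an enzyme of the anaphase-promoting complex, at 0.11, none past 1.5-fold. Mitotic genes of other chromosomes were higher in the low class, as given below. Within clusters of like cells UBE2C ran over -0.59 to -0.18 and AURKA over -0.84 to -0.22. Values within clusters of TPX2 and FAM83D are not reported here. NNAT, an imprinted gene expressed from the paternal copy, had 108, 102 and 81.2 CPM and a log2 ratio of 0.41, and ran over 0.24 to 0.47 within clusters. The ligand gene BMP7 stood at -0.03, with 58.2, 55.7 and 59.2 CPM, and the Notch ligand JAG1 at -0.20. The markers themselves had a median of -0.61, and 39 of the 59 were lower, which their choice fixes. Of these, ZFAS1, a snoRNA host, had 618, 803 and 1052 CPM and PSMA7, a proteasome subunit, 299, 399 and 498 CPM.

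Off chromosome 20, NTS, PTN, FABP7 and many mitotic genes were higher in the low class, and BMP4, NDUFA4L2 and fibronectin were lower. Of 8271 measured genes, 201 (2.43%) were at least 1.5-fold higher in the low class and 81 (0.979%) lower, 282 (3.41%) in all. At 2-fold the counts were 35 and 26. The quartiles of the log2 ratio over all measured genes were -0.07 and 0.14. The middle class lay between the low and the high class for 197 of the 201 higher genes and for all 81 lower ones. WT cells at day 6 had a level nearer to the high than to the low class for 175 of the 201 higher genes, and for 40 of the 81 lower ones. Ranked by marker share, cells of WT at day 6 gave 162 (2.14%) higher and 35 (0.462%) lower genes of 7579, 197 (2.6%) in all, and cells of the knockout at day 0 gave 81 (0.948%) and 30 (0.351%) of 8541, 111 (1.3%) in all. At 2-fold the counts in WT were 33 and 10. The count of higher genes was thus of like size in WT, where the chromosome 20 median was 0.05, and that of lower genes was smaller.

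Several of the genes with the highest ratios are known from neurons and their progenitors. NTS (chromosome 12, 85874295 to 85882992) had 52.7 CPM in the low, 37.7 in the middle and 15.5 in the high class, 3.40-fold higher in the low class (2.97 to 3.91), and 9.70 CPM in WT at day 6. The pleiotrophin gene PTN, a growth factor of neural progenitors, had 957, 717 and 369 CPM, 2.596-fold higher (2.52 to 2.67), and 178 CPM in WT. FABP7, a fatty acid binding protein of radial glia, had 154, 112 and 62.0 CPM, 2.49-fold higher (2.32 to 2.66), and 20.4 CPM in WT. For these 3 genes the order was low, middle, high class and then WT.

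The other genes among the 15 highest had various known roles. MAPK10, the neuronal JNK kinase, had 126, 88.5 and 40.4 CPM and was 3.12-fold higher (2.87 to 3.40). MAP2, a dendritic microtubule protein, was 2.43-fold higher, PPP3CA, a catalytic subunit of calcineurin, 2.40-fold, and AMIGO2, a neuronal adhesion protein, 2.48-fold. The transcription factors NFIA and SOX5 were 2.53-fold and 2.09-fold higher. ITPR2, a calcium channel of the endoplasmic reticulum, was 2.62-fold higher, and the matrix metalloproteinase MMP17 2.17-fold. The non-coding RNAs AP000459.2, LINC00511 and LINC00672 were 2.59-fold, 2.08-fold and 2.08-fold higher. TSPO, a cholesterol-binding protein of the outer mitochondrial membrane, differed from these genes in its WT level. It had 48.1, 34.8 and 14.4 CPM in the low, middle and high class, 3.34-fold higher in the low class (2.91 to 3.86). WT had 42.8 CPM, near the low class.

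BMP4 (chromosome 14, 53949736 to 53958761) had the lowest ratio among genes off chromosome 20 at 20 CPM or more over the library. It had 9.66 CPM in the low, 30.7 in the middle and 56.6 in the high class, 5.86-fold lower in the low class (5.15 to 6.68), and 61.4 CPM in WT at day 6. NDUFA4L2, a hypoxia-induced mitochondrial protein, had 8.87, 24.6 and 44.0 CPM, 4.96-fold lower (4.32 to 5.71), and 73.4 CPM in WT. Fibronectin (FN1) had 47.8, 94.1 and 125 CPM, 2.61-fold lower (2.44 to 2.79), and 202 CPM in WT. In these 3 genes the high class was the knockout class nearest to WT.

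For SAT1, SHISA2 and RAB3B the high class was above WT. SAT1, the enzyme that acetylates spermidine and spermine for breakdown, had 1132, 1954 and 2947 CPM in the low, middle and high class, 2.603-fold lower (2.57 to 2.64), against 1025 CPM in WT. SHISA2 is of a family that in frog embryos holds WNT and FGF receptors in the endoplasmic reticulum. It had 22.1, 45.3 and 72.2 CPM, 3.26-fold lower (2.97 to 3.59), against 21.3 CPM in WT. RAB3B, a GTPase of regulated secretion, had 76.8, 141 and 221 CPM, 2.88-fold lower (2.74 to 3.03), against 98.5 CPM in WT. In these 3 genes the low class was nearer to WT than the high class was. The imprinted gene DLK1 was 2.40-fold lower, the somatostatin receptor SSTR2 2.38-fold, the surface protein TPBG 2.25-fold, the membrane protein TMEM88 2.26-fold, and the glypican GPC3 1.89-fold. The non-coding RNAs LINC01405 and LINC00472 were 2.41-fold and 2.14-fold lower, with a high class of 64.4 and 32.3 CPM that stayed below the 193 and 41.1 CPM of WT. The homeobox factor PROX1 was 2.05-fold lower and the orphan receptor GPRC5C 2.02-fold.

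The classes did not have the same mix of cell states. When cells were clustered without chromosome 20 genes, 6 clusters held at least 50 cells of both classes. A cluster led by FN1 and BMP4 (cluster 0) held 356 low and 354 high cells, and one led by PTN, NEFM and LINC00511 (cluster 1) 542 and 88. One led by LNCPRESS1 and POU5F1 (cluster 2) held 421 and 153, one led by mitotic genes (cluster 3) 450 and 118, one led by SAT1 and DLK1 (cluster 4) 219 and 265, and one led by metallothioneins (cluster 5) 198 and 90. The genes named above lead some of these clusters, so the numbers are given only as the cells behind the values that follow.

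The chromosome 20 offset was present in each cluster, and the ratios of the leading genes varied between clusters. The median log2 ratio of chromosome 20 genes outside the markers was between -0.53 and -0.45 in the 6 clusters, against medians of -0.01 to 0.04 off the chromosome. The leading genes had been chosen for their ratio over the same cells, so their ratios within clusters are a description. NTS ran over 1.25 to 1.84, TSPO over 1.08 to 2.22, MAPK10 over 1.16 to 1.87 and NDUFA4L2 over -2.68 to -1.36. BMP4 ran over -2.40 to -0.68. PTN ran over 0.20 to 1.42, FN1 over -1.42 to -0.07 and SAT1 over -1.74 to -0.17, so these ranges reached close to 0. These 3 genes and BMP4 are among the leading genes of clusters. Within a cluster the 2 classes held as few as 88 cells.

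**Figure D4:**
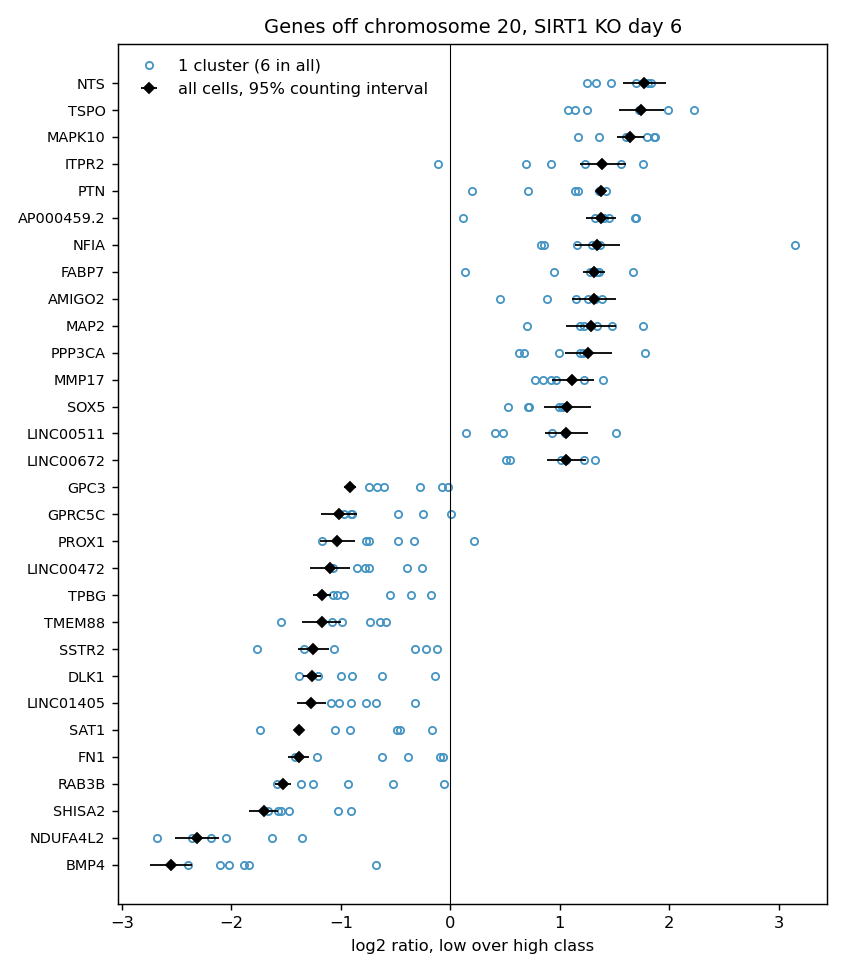
Log2 ratio, low over high class, of the 15 highest and the 15 lowest genes off chromosome 20 at 20 CPM or more in SIRT1 knockout at day 6, over all cells (diamonds, bars for the 95% counting interval) and in each of 6 clusters (circles). NTS, TSPO and MAPK10 have circles between 1.08 and 2.22 and NDUFA4L2 between -2.68 and -1.36. In contrast, FN1, SAT1 and PTN have circles close to 0.

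Ranking cells inside each cluster, and then taking the lowest 50% and highest 25% of every cluster, gave 75 higher and 41 lower genes, 69 and 38 of them among those above. Log2 ratios under this ranking were 1.32 for NTS, 1.18 for MAPK10, -1.68 for BMP4 and -2.03 for NDUFA4L2. They were 0.59 for PTN, -0.66 for SAT1 and -0.80 for FN1, against 1.38, -1.38 and -1.39 over all cells. The chromosome 20 median was then -0.44, so this ranking also separated the chromosome 20 levels less.

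Patterning genes moved singly. OTX2, the factor of forebrain and midbrain identity, had 9.48, 17.4 and 24.2 CPM in the low, middle and high class, 2.56-fold lower (2.20 to 2.98), against 17.9 CPM in WT. It was the 1 lower member of the 4 measured floor plate and dopaminergic progenitor genes off chromosome 20 and of 8 measured midbrain-hindbrain genes, whose medians were -0.32 and 0.13 beside 0.03 for all genes. PAX8, a midbrain-hindbrain factor, had 13.6, 11.6 and 8.44 CPM and was 1.62-fold higher (1.33 to 1.98). The eye-field factor SIX6 had 11.7, 16.9 and 18.9 CPM and was 1.62-fold lower (1.38 to 1.88), with a range of -1.36 to 1.48 over clusters. Ranked within clusters, OTX2 stood at -1.02, PAX8 at 0.36 and SIX6 at -0.04. Of the hedgehog list, 0 of 4 measured members passed (PTCH1, the hedgehog receptor, at 0.53), beside 3.41% of all genes off chromosome 20.

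The neural lists had more members higher than lower in the low class. All genes off chromosome 20 leaned the same way, with 2.43% higher, 0.979% lower and a median of 0.03. Of 16 measured neural progenitor genes, 4 were higher and 1 lower, with a median of 0.17. The lower one was POU3F1, a POU factor, with 27.3, 33.1 and 44.7 CPM. Of 10 measured neuronal genes, 4 were higher and 0 lower, with a median of 0.50. Besides NTS these were TAGLN3 (1.93-fold), the neurofilament gene NEFM (1.90-fold) and DPYSL3, a protein of growth cones (1.77-fold). Of 6 measured neural crest genes, 4 were higher and 0 lower, with a median of 0.63. They included SOX9, a transcription factor of the crest (1.54-fold), and ERBB3, a neuregulin receptor (1.54-fold). Ranked within clusters, 3 neural progenitor, 2 neuronal and 0 neural crest genes were higher and 0 lower, with medians of 0.19, 0.35 and 0.28. The defining markers of neurons and of neural crest did not stand higher in the low class: 6 neuron markers summed to 52.9, 60.9 and 66.1 CPM in the low, middle and high class, with NEUROG2 at 0, and 5 neural crest markers to 23.3, 26.0 and 30.6 CPM. Of 12 measured pluripotency genes, 2 were higher and 0 lower, namely the sialomucin PODXL (1.71-fold) and L1TD1, an RNA-binding protein (1.54-fold). Ranked within clusters, 0 of the 12 were higher and 1 lower, with PODXL at 0.50 and L1TD1 at 0.39.

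The signalling lists were split. Of the BMP list, BMP4 was the 1 lower and FST, which encodes the activin and BMP antagonist follistatin, the 1 higher of 11 measured members, FST having 157, 125 and 96.9 CPM (1.62-fold, 1.53 to 1.72). Of 17 WNT genes, the receptor FZD5 was 2.53-fold lower (2.20 to 2.93), with 10.7, 16.1 and 27.2 CPM. LGR4, a receptor of R-spondins, was 1.81-fold higher (1.65 to 1.98), with 69.9, 50.7 and 38.7 CPM. Of 12 Notch genes, the glycosyltransferase LFNG was 2.02-fold lower and the effector HES4 1.84-fold. HES4 passed in all 6 clusters. The retinoic acid binding proteins went opposite ways. CRABP1 had 1439, 1081 and 772 CPM, 1.86-fold higher (1.83 to 1.90), and CRABP2 143, 177 and 217 CPM, 1.52-fold lower (1.45 to 1.59). The medians of the BMP, WNT, Notch and retinoic acid lists were 0.29, 0.02, 0.07 and 0.08, beside 0.03 for all genes. Among all genes off chromosome 20, 2.43% were higher and 0.979% lower. Ranked within clusters, the number higher and lower was 0 and 1 in the BMP list, 1 and 1 in the WNT list, 0 and 1 in the Notch list and 1 and 0 in the retinoic acid list.

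Matrix and cytoskeletal genes also went both ways. For comparison with their counts, 2.43% of all genes off chromosome 20 were higher and 0.979% lower. In the extracellular matrix list, 24 genes were measured and FN1 was lower. COL11A1, a fibrillar collagen, was 1.98-fold higher (1.80 to 2.19) and SPP1, which encodes osteopontin, 1.60-fold higher (1.31 to 1.96). Over clusters SPP1 ran over -2.48 to 1.42, and ranked within clusters it stood at 0.24. Under that ranking 1 of the 24 was higher and 1 lower. Of 26 YAP target and cytoskeletal genes, 3 were lower and 0 higher. These were ANKRD1 (1.80-fold) and the keratins KRT19 (1.76-fold) and KRT18 (log2 ratio -0.59), and the list's median was -0.11. Ranked within clusters, 0 of 26 passed, with ANKRD1 at -0.44, KRT19 at -0.52 and KRT18 at -0.48, and over clusters ANKRD1 ran over -2.31 to 0.34. In all 3 genes WT exceeded every knockout class, with 323 CPM for ANKRD1 against 31.4, 47.1 and 56.4 in the low, middle and high class.

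Many mitotic genes were higher in the low class, and the count depended on how cells were ranked. Of 57 measured genes of G2 and M phase, 22 were higher and 0 lower in the low class, with a median of 0.54. Over all genes off chromosome 20, 2.43% were higher and 0.979% lower. CENPA, the centromeric histone, had 39.0, 24.6 and 19.9 CPM and KIF23, a kinesin of cell division, 61.7, 45.6 and 32.4 CPM. In WT at day 6, ranked by the same share, 45 of 57 were higher, with a median of 0.80, and in the knockout at day 0 it was 0 of 57, with a median of 0.24. By phase, 48.8% of low, 40.5% of middle and 36.6% of high cells were called G2 or M, and in WT 38.6%, 33.7% and 24.8%. Ranked within clusters, 0 of 57 passed and the median was 0.16. With classes cut at 2.6% and 3% of all chromosome 20 UMIs, an alternative chosen after seeing the data, the median was 0.04, with CENPA at 0.10, KIF23 at 0.17 and NEK2, a mitotic kinase, at -0.10. The S phase list had 0 of 39 members past 1.5-fold in either direction and a median of -0.08.

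Few members of the stress lists passed, and none of the metabolic ones. Over all genes off chromosome 20, 3.41% passed in either direction, so few were to be expected in lists of 13 to 62 genes. Of 27 measured p53 targets, 1 was lower (PHLDA3, 1.62-fold) and 0 higher, with a median of -0.14, while CDKN1A, the p53-induced cell cycle inhibitor, stood at -0.58 with 56.6, 78.8 and 84.5 CPM. Of 20 measured genes of the integrated stress response, DDIT3 was the 1 lower (1.58-fold), and it was also lower by the same ranking in WT at day 6 and in the knockout at day 0. That list had a median of -0.13, with 6 of the 20 genes above 0. JUN was the 1 higher of 13 immediate early genes (1.51-fold), which had a median of 0.34 with 11 above 0. Ranked within clusters, the medians of the p53, integrated stress response and immediate early lists were -0.11, -0.25 and 0.25. None of 13 apoptosis, 17 FGF feedback, 25 cholesterol synthesis, 25 glycolysis, 22 hypoxia or 62 nuclear oxidative phosphorylation genes passed in either direction. Medians of these lists were -0.01, 0.20, 0.20, 0.06, 0.10 and 0.04, in that order, beside 0.03 for all genes.

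Genes whose proteins sit in complexes with chromosome 20 subunits did not follow those subunits in their RNA. Of 92 measured partners on other chromosomes, 0 were higher and 0 lower, and their median log2 ratio was 0.00. Of all 8271 genes off chromosome 20, 2.43% were higher and 0.979% lower, with a median of 0.03. Few calls were thus to be expected among 92 genes. The proteasome, with PSMA7, PSMF1 and ADRM1 on chromosome 20, had 31 measured partners between -0.19 and 0.13. The Sm core of the spliceosome, with SNRPB, had 7 partners between -0.05 and 0.22, the oligosaccharyltransferase, with RPN2, 6 between -0.19 and 0.10, and initiation factor 2, with EIF2S2, 2 partners at -0.13 and -0.19. The lowest partner was POLR3E, a subunit of RNA polymerase III, at -0.53, with 24.4, 28.4 and 35.3 CPM. For comparison, EIF2S2 itself had 272, 350 and 464 CPM and SNRPB 261, 314 and 384 CPM in the low, middle and high class.

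**Figure D5:**
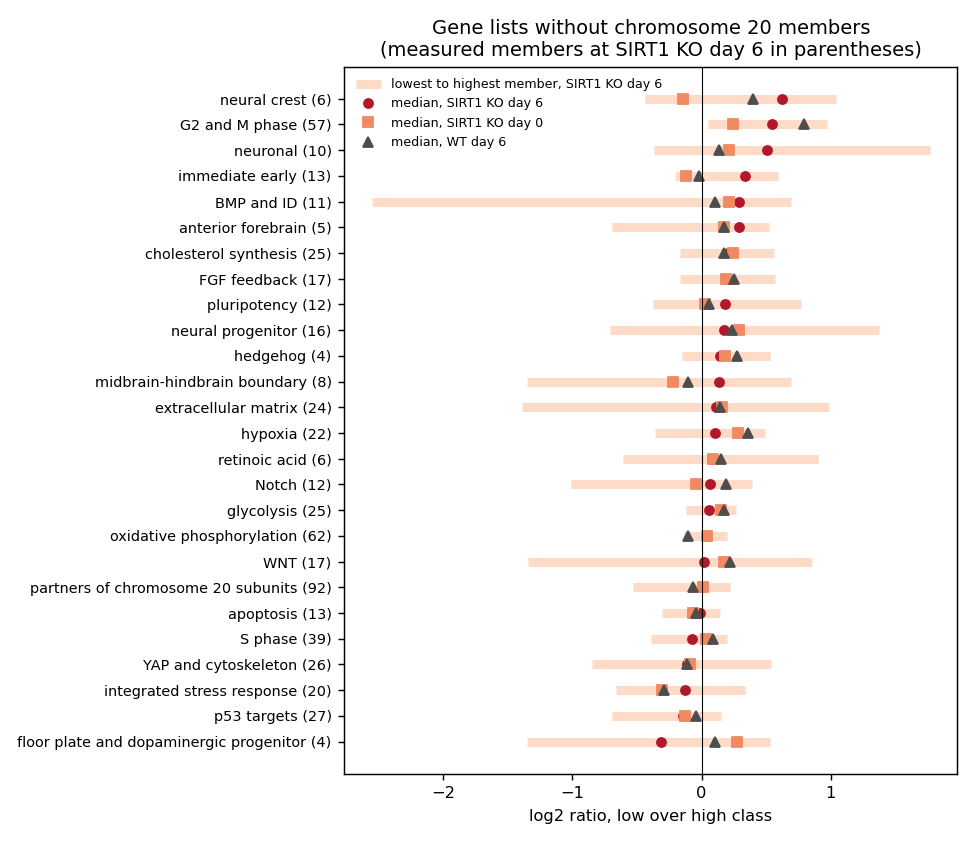
Median log2 ratio, low over high class, of 26 gene lists without their chromosome 20 members, for SIRT1 knockout at day 6, SIRT1 knockout at day 0 and WT at day 6 (points), with the range of members in the knockout at day 6 (bands) and the number of members measured there in parentheses. Neural crest, G2 and M phase and neuronal genes stand highest in the knockout at day 6, and the partners of chromosome 20 subunits stand at 0.00.

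Some of the called genes were also called when the knockout at day 0 was cut by its own shares, in cells of another library. Of 7718 genes measured in both, 61 were called higher at day 0 and 14 lower. Of the genes called at day 6, 26 of 152 higher ones (17.1%) were also higher at day 0, which is 42.6% of the 61 called there. Of the lower ones, 7 of 57 (12.3%) were also lower, which is 50% of the 14 called there. At day 0 the ratio had the same sign for 137 of the 152 higher and 38 of the 57 lower genes, and 1 of the lower genes was called higher. The shared higher genes included NTS (log2 ratio 1.62 at day 0), NFIA (1.32), MAPK10 (1.20), ITPR2 (1.14), PPP3CA (0.77), TSPO (0.64) and MAP2 (0.59). The shared lower genes included LINC01405 (-1.61) and DDIT3 (-0.81). NDUFA4L2 was also lower at day 0 (-1.06), with 1.98 CPM in low and 4.12 CPM in high cells, under the 10 CPM over the library that such counts required. BMP4 was also under that level at day 0, with 1.02 and 1.11 CPM, and PTN did not pass, with 124 and 94.98 CPM and a log2 ratio of 0.39.

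With WT at day 6, where 161 of 7393 genes measured in both were called higher and 19 lower, 55 of 143 higher genes (38.5%) were shared, which is 34.2% of the 161 called there, and 4 of 70 lower ones (5.71%), which is 21.1% of the 19 called there. The sign was the same for 125 of the 143 higher and 32 of the 70 lower genes, and 2 genes of each kind were called in the opposite direction. Many of the 55 were mitotic, and they also included PTN (0.70 in WT), ITPR2 (0.75) and MAPK10 (0.62). NTS, at 0.10, TSPO, at -0.32, BMP4, at -0.14, and NDUFA4L2, at 0.29, did not pass in WT. SOX5 had a larger ratio in WT, 1.48 against 1.06 in the knockout. Whether ratios differ between the libraries was not tested.

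Markers of other cell types moved with the classes in part. The 8 floor plate markers, FOXA2 among them, summed to 76.4, 120 and 178 CPM in the low, middle and high class, against 101 CPM in WT, with FERD3L at 0 in the low and middle classes. FOXA2, a chromosome 20 gene, made up 69.2, 108 and 161 CPM of these sums, and the other 7 markers 7.24, 12.0 and 17.4 CPM. The 8 neural progenitor markers summed to 1743, 1443 and 1005 CPM, against 752 in WT, and 2 of their 5 measured members, PTN and FABP7, were higher. The other 6 markers summed to 632, 613 and 574 CPM, against 553 in WT. Surface ectoderm markers summed to 344, 411 and 532 CPM, with TP63 and KRT5 at 0, and pluripotent markers to 764, 694 and 676 CPM. Mesenchymal markers had 117, 184 and 144 CPM, endothelial markers 17.6, 13.9 and 15.7, and endoderm markers 1.39, 1.99 and 1.60 CPM with SOX17 and TTR at 0. The part of these cell types in the results above was not tested.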

How the data were processed

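The authors deposited raw UMI counts per gene and barcode of 10x 3′ libraries, with no normalization. Per the submitters' processing notes the reads went through Cell Ranger 6.1.2 against GRCh38, while the file headers name Cell Ranger 4. Every barcode was deposited, so cells were called here (at least 4000 UMIs, 1000 genes, at most 20% mitochondrial UMIs). Positions came from GENCODE 29 by Ensembl identifier (34616 of 36601 features), and genes without one were left out.

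Counts were summed per class and scaled to CPM. Log2 ratios used a prior count of 0.5. Genes at 10 CPM or more over the library counted as measured. With 1 library per group there was no test: intervals are exact conditional (Clopper-Pearson, 95%) and cover counting error only. Ratios and class cuts were tested on simulated data. The simulated counts held counting error only, so this check did not cover variation between cells or cell states. Clusters were made with scanpy 1.11.5 (2000 variable genes, 30 components, 15 neighbours, Leiden resolution 0.5). Phases were called on cells thinned to 4000 UMIs. Scrublet's automatic threshold marked 0 cells in each library, was treated as not having worked, and doublets were kept.

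Named genes were the 15 highest and 15 lowest ratios at 20 CPM or more off chromosome 20, up to 4 members per list, SIRT1, the partners and fixed chromosome 20 genes. The classes, lists and named-gene rule were chosen with earlier results of these data known. Some single-gene values are not reported here.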

Additional observations from a re-analysis of the deposited data

Results flagged for a closer look

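In 4 genes the classes differed in opposite directions in different libraries, and in each case the difference was not tested. PROX1, a homeobox factor, had a log2 ratio of -1.03 (low over high class) in the knockout at day 6 and 0.80 in WT at day 6. In WT the low cells had 41.4 and the high cells 23.8 CPM. Over the knockout's 6 clusters at day 6 PROX1 ran over -1.17 to 0.21, called lower in 3. Ranked within clusters it stood at -0.44. SPP1, osteopontin, had 0.67 in the knockout at day 6 and -0.59 in WT at day 6. Its levels in WT were 167 CPM in low and 250 CPM in high cells, far above the 13.4 and 8.38 CPM of the knockout. Over the knockout's 6 clusters at day 6 SPP1 ran over -2.48 to 1.42, called higher in 3 and lower in 1. Ranked within clusters it stood at 0.24. LINC00261, the neighbour of FOXA2, had -1.70 in the knockout at day 6 and 0.62 in WT at day 6, with 57.7 CPM in low and 37.5 CPM in high cells of WT. FN1, fibronectin, had -1.39 in the knockout at day 6 and 0.69 in the knockout at day 0, with 49.8 CPM in low and 31.0 CPM in high cells of day 0. Cells were ranked within each library, so the low cells of WT had a marker share with a median of 1.39%, above the low limit of the knockout.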

How the results depend on the processing

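No paired analysis was possible because there was 1 library per group, and for the same reason no replicate could be left out. Fixed limits of 2.6% and 3% on the marker share gave no value, since the highest share was 2.20%, and limits on the share of all chromosome 20 UMIs, chosen after seeing the data, took their place. Against 201 higher and 81 lower genes off chromosome 20, ranking within clusters gave 75 and 41, short arm markers alone 73 and 26, no filter on low values 671 and 615, and a 50 CPM filter 58 and 19. The other 9 planned settings and the added one stayed within 1.5 times. Scaling to UMIs outside chromosome 20, MT-, RPL and RPS genes gave 173 and 103, which is 62.7% higher among the called in place of 71.3%, and the all-chromosome limits 140 and 98 (58.8%). The chromosome 20 median, -0.50, was -0.56 with the all-chromosome limits, -0.55 at 50 CPM, -0.56 with free RNA subtracted, -0.47 with long arm and -0.40 with short arm markers alone, -0.53 without a filter, -0.44 ranked within clusters, -0.51 within 5 bins of UMIs per cell, -0.54 with that scaling and -0.45 with cells thinned to 4000 UMIs. Under the all-chromosome limits the genes of this median also helped to choose the cells, so a low value was fixed in advance there. Of 275 values of single genes and lists, 141 moved beyond their counting interval when ranked within clusters and 162 with short arm markers alone. NEK2, a mitotic kinase, turned from 0.92 to -0.10 with the all-chromosome limits. The causes were not tested. Counting intervals do not cover variation between cultures, so nothing here shows that another knockout culture would hold these classes.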
